A study of Bos taurus with 2 samples.

Results

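The cells described here were SOX2-positive cells of day 25 bovine embryos whose transcripts held very little ribosomal protein RNA. Cells with at least 1000 UMI (unique molecular identifiers, which count captured transcripts), at least 500 genes and at least 1 UMI of SOX2, a transcription factor of neural progenitors, were ranked within each library by ribosomal share. Ribosomal share is the percentage of a cell's UMI that came from 84 rows named as ribosomal protein genes. The members were the 590 cells in the lowest 25% of that ranking, 251 in replicate 1 and 339 in replicate 2. They were drawn from 2357 SOX2-positive cells, among 4159 cells that passed the UMI and gene minimums and 4437 barcodes in all. They were compared with the 590 cells in the highest 25%, called high-share cells here, again 251 and 339.

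The embryos were chimeras that had taken up bovine embryonic stem cells (bESC), and both libraries belong to this 1 group, with no unmanipulated control. Embryos flushed at day 25 were cut up and digested with papain, and their cells were sorted and captured with the 10x Genomics 3′ v3.1 kit. The gate of that sort is not stated in the labels. Nor do they tie each library to its own embryos, so p-values measure only the spread between these 2 libraries, which may be technical.

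Ribosomal proteins assemble with ribosomal RNA into the subunits that translate all messenger RNA. In vertebrates their messages begin with a short pyrimidine tract, the 5′ terminal oligopyrimidine (TOP) motif, shared with translation elongation factors, through which the mTOR kinase controls how strongly they are translated. In the early neural tube, progenitors that carry SOX2 divide next to the lumen and produce neurons, and growth and protein synthesis are high in such dividing tissue.

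The ribosomal share set the members and is given as a description. The median member had a share of 1.94% in replicate 1 and 2.04% in replicate 2, against 26.4% and 27.9% in high-share cells. Members ranged from 0.724% to 2.51% in replicate 1 and from 0.588% to 2.87% in replicate 2. The limit cut through the densest part of the distribution: the member with the highest share stood at 2.510% in replicate 1 and its nearest non-member at 2.516%, and in replicate 2 these were 2.872% and 2.885%. Shares from 2% to 4% held 30.6% of SOX2-positive cells in replicate 1 and 23.0% in replicate 2, so many non-members had a share close to that of members. When the ranking was made on a random 50% of each cell's UMI, the median share in the remaining UMI of the cells so chosen was 1.94% and 2.02%, and 92.8% and 94.4% of the cells chosen by it were members.

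**Figure D1:**
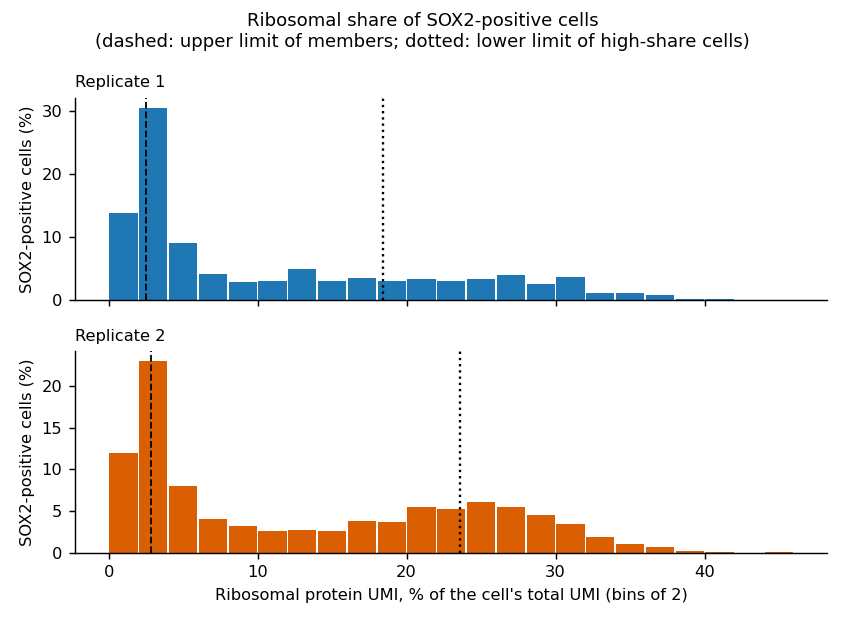
Percentage of SOX2-positive cells (vertical axis) by ribosomal protein share of total UMI (horizontal axis, bins of 2%), with 1 panel for each library. The dashed line, the upper limit of the members, falls at 2.51% and 2.87%, inside the tallest peak; the dotted line is the lower limit of the high-share cells.

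Members held fewer UMI than high-share cells. Their median total was 5249 and 4954 UMI in the 2 libraries, against 10717 and 10998. Ribosomal UMI alone were 96 and 93 per median member, against 2713 and 2989, while non-ribosomal UMI were 5159 and 4841 against 7833 and 7896. Transcript diversity went the other way at equal depth: thinned to 1000 non-ribosomal UMI, a median member showed 844 and 849 genes and a median high-share cell 782 and 776. The share of mitochondrially encoded UMI was 0.306% and 0.329% in the median member, against 0.213% and 0.168% in high-share cells and 0.492% and 0.419% in the cells ranked just above the members, from 25% to 50%. A comparison matched on total UMI is given beside the results below. None of the members' barcodes occurred in both libraries, while 6 of all the deposited barcodes did.

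The label of neural cells was checked against fixed markers. All 9 neural progenitor markers in the table were detected in members of both libraries, among them RFX4, a progenitor transcription factor, at 360 and 347 CPM and HES5, a Notch effector, at 132 and 146 CPM. CPM here means UMI per 1000000 non-ribosomal UMI, scaled by TMM, which aligns the bulk of genes between sums. The 9 markers together were lower in members, at 1606 and 1660 CPM against 8172 and 8903 CPM in high-share cells. FABP7, a fatty acid binding protein of radial glia, was at 10.7 and 9.60 CPM against 247 and 215 CPM, and VIM, given below, made up most of the sum in high-share cells. SOX2 itself, which the rule used, stood at 309 and 347 CPM in members and 630 and 587 CPM in high-share cells. All 10 neuron markers were also detected in members, summing to 1403 and 1214 CPM against 1828 and 1601 CPM. Markers of some other types were scarcer in members. The 8 mesenchyme markers summed to 99.5 and 124 CPM against 839 and 772 CPM in high-share cells. The 8 endoderm markers summed to 63.6 and 65.2 against 808 and 764 CPM, and 5 epithelial markers to 40.3 and 31.8 against 433 and 504 CPM. The defining endoderm genes AFP and ALB were at 0 in replicate 1 and at 0.505 CPM each in replicate 2. FOXD3 of the neural crest, the myeloid genes CSF1R and TYROBP, and the cardiomyocyte genes TNNT2 and NKX2-5 were at 0 in both. In high-share cells these genes were at most at 1.39 CPM (ALB, replicate 2), so they do not separate the groups. TFAP2B, also listed for the neural crest, was at 20.8 and 14.1 CPM in members against 16.3 and 22.2 CPM. GATA3, listed for noradrenergic neurons, was at 300 and 288 against 518 and 526 CPM. CD68, a lysosomal protein of macrophages also present in other cells, was at 10.7 and 18.2 CPM in members against 1.25 and 1.85 CPM, and the 5 myeloid markers summed to 11.3 and 20.2 against 2.51 and 2.31 CPM. ACTN2, a sarcomere crosslinker also listed for cardiomyocytes, was at 119 and 126 CPM in members against 34.5 and 27.3 CPM. It made up most of the cardiomyocyte sums, which were 121 and 128 CPM in members against 41.3 and 31.0 CPM. The embryonic globin HBZ was at 324 and 320 CPM in members against 497 and 526 CPM, with the erythroid regulator GATA1 at 0 and 0.505 CPM. The part of these other-cell transcripts in the results was not tested.

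The low level held for nearly the whole ribosomal protein family, again as a description. Of the 84 rows, 82 had at least 30 UMI in the members of both libraries, and their level per 1000000 total UMI was a median of 15.3-fold higher in high-share cells in each library. The ratio was over 10 for 71 of these rows in replicate 1 and 69 in replicate 2. RPL12, a protein of the large subunit stalk base, was at 129 and 139 UMI per 1000000 in members against 2934 and 3065, and RPS13, of the small subunit, at 172 and 171 against 3716 and 3952. Among these 82 rows, proteins of both subunits were lower in the members of both libraries, which the ranking by these same rows favoured. Only 6 of the 82 rows had a ratio under 5 in at least 1 library: RPL7L1, RPS27L, RPL22L1, RPL26L1, RPS4Y1 and RPL4. The first 4 are paralogs of core ribosomal proteins, and RPL7L1 was at 97.2 and 91.0 in members against 175 and 181. RPL4, a core protein of the large subunit, was at 143 and 143 against 706 and 691. The labels do not state how reads of such near copies and of ribosomal pseudogenes were assigned, so values of single paralogs are uncertain. One row, RPS19BP1, encodes a binding partner and no ribosomal protein, and had 17 and 15 UMI in members.

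**Figure D2:**
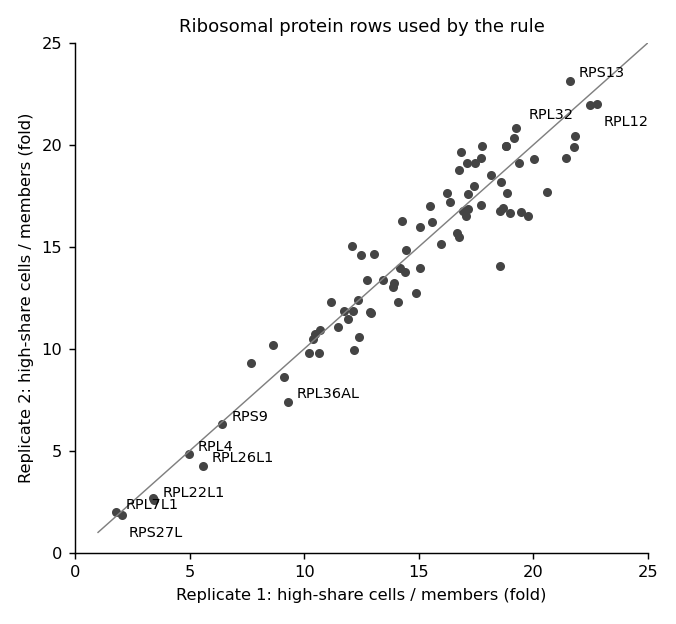
Level in high-share cells divided by the level in members (fold, from UMI per 1000000 total UMI) in replicate 1 (horizontal) and replicate 2 (vertical), 1 point for each of the 82 rows with at least 30 UMI in the members of both libraries. Most points lie between 10 and 23; RPL7L1 and RPS27L lie near 2, and the grey line marks equal ratios.

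The genes that the rule did not use were tested between members and high-share cells with edgeR's quasi-likelihood test on summed UMI, with library as a term. Of 11645 genes, 8666 (74.4%) were called at a Benjamini-Hochberg adjusted p under 0.05, 4232 (36.3%) higher and 4434 (38.1%) lower in members. The lower side held the larger differences: 1907 genes were at least 4-fold lower and 448 at least 4-fold higher, and 294 against 29 passed 16-fold. Called rises had a median log2 fold change of 1.01 and called falls of -1.76. The split depends on scaling. The median over all genes was 0.00 on the log2 scale with TMM, 0.46 per non-ribosomal UMI without TMM and 0.90 per total UMI, and 48.8%, 62.8% and 72.7% of the calls were then higher in members. Differences under about 1 on the log2 scale are therefore relative to the bulk of genes.

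Matching on total UMI left 92 cells on each side in replicate 1 and 66 in replicate 2. Of 8537 genes tested, 2450 (28.7%) were higher and 2790 (32.7%) lower in the matched members, 61.4% in all. Of the genes higher in matched cells 97.1% were also higher in all cells, which is 67.8% of the all-cell rises tested in both, and for lower genes the shares were 98.5% and 83.5%. These cells are a subset of the same libraries, so the overlap is a description.

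GFP, the reporter row of the table, was among the genes with much lower levels in members. It stood at 348 and 355 CPM in members and at 5894 and 5512 CPM in high-share cells. Members of both libraries were far below, with a log2 fold change of -4.02 ± 0.09 (SE, adjusted p = 1.5e-35, edgeR) and of -3.92 in matched cells. Over the 4 equal parts of the ranking, from lowest to highest share, GFP went from 365 to 799, 2522 and 6020 CPM in replicate 1 and from 374 to 1320, 3853 and 5683 CPM in replicate 2 (all parts scaled together). At least 1 GFP UMI was found in 74.1% and 70.8% of members and in 98.8% and 99.7% of high-share cells, whose median depth was greater. With each cell thinned to 1000 UMI these shares were 31.5% and 26.0% against 83.7% and 88.2%. No cell type is labelled as lacking GFP, so the background of free RNA in these shares is not known. The difference in the share of cells with a GFP UMI was smaller than that in level. The effect of a sort whose gate is unknown cannot be told apart from these differences.

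Transcripts of the translation machinery that the rule left out went with the ribosomal genes. FAU encodes a ribosomal protein fused to a ubiquitin-like protein, and its name escapes the rule. It was at 139 and 153 CPM in members and 3917 and 4274 CPM in high-share cells. Members of both libraries were far below, at a log2 fold change of -4.81 ± 0.10. Of 25 translation factors and other TOP transcripts, 24 were lower and 1 higher, with a median log2 fold change of -2.94. EEF1A1, the elongation factor that brings aminoacyl-tRNA to the ribosome, was at 518 and 550 CPM against 13180 and 13971 CPM. TPT1, a classical TOP message, had a log2 fold change of -5.01 ± 0.10 and RACK1, a scaffold on the small subunit, one of -4.96 ± 0.10. The exception was IPO7, an importin that carries ribosomal proteins into the nucleus, at 154 and 157 CPM against 60.8 and 55.5 CPM. In matched cells the same counts, 24 lower and 1 higher, were found.

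Genes that build or regulate ribosomes were divided, beside 36.3% higher and 38.1% lower over all genes tested. Of 30 ribosome biogenesis genes, 18 were lower and 9 higher (median log2 fold change -0.56, which turns to 0.35 per total UMI without TMM). NCL (nucleolin) was at 518 and 544 CPM in members against 1293 and 1513 CPM, and FBL (fibrillarin), the methyltransferase of ribosomal RNA, at 49.7 and 32.3 against 374 and 430 CPM. RRN3, which recruits RNA polymerase I, was higher, at 106 and 105 against 39.5 and 37.5 CPM. NOP58, a core protein of the same nucleolar particles as FBL, was higher by 0.60 ± 0.09 on the log2 scale. Of 20 genes in the signalling that controls ribosome production, 12 were higher and 4 lower (median 0.38). RPS6KA3, a ribosomal S6 kinase, was at 320 and 309 CPM against 122 and 141 CPM, a log2 fold change of 1.25 ± 0.10. AKT1, the kinase downstream of PI3 kinase, was at 20.8 and 21.7 CPM against 226 and 239 CPM, and EIF4EBP1, the translation repressor that mTOR inactivates, had a log2 fold change of -2.91 ± 0.17.

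Nuclear genes of the respiratory chain and ATP synthase were lower without exception among those tested. All 49 nuclear-encoded subunits of oxidative phosphorylation tested were lower in members, with a median log2 fold change of -3.77, and 48 of 49 were lower in matched cells. ATP5MC2, of the ATP synthase membrane ring, was at 61.1 and 68.7 CPM against 2019 and 2207 CPM. NDUFA4, a respiratory chain subunit, was at 54.2 and 51.0 against 829 and 902 CPM. UQCRH of complex III had a log2 fold change of -3.72 ± 0.10 and ATP5F1E of ATP synthase one of -3.55 ± 0.10. The 12 tested genes encoded in mitochondrial DNA did not share this direction: 7 were higher, 5 were not called and their median was 0.24, while in matched cells 0 of 11 were called by edgeR (median -0.17), with 1 at an unadjusted p under 0.05, and 0 by DESeq2 with or without adjustment. ND1, a complex I subunit, was at 793 and 721 CPM in members against 645 and 558 CPM, and ND2 at 874 and 796 against 764 and 665 CPM.

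Glycolysis and protein quality control were lower as well. Of 19 glycolysis genes, 17 were lower and 1 higher (median -3.22). GAPDH was at 170 and 171 CPM in members against 3511 and 3422 CPM, and TPI1, triosephosphate isomerase, at 95.7 and 87.9 against 1844 and 2067 CPM. The higher gene was HK2, the hexokinase at the entry of the pathway, with a log2 fold change of 0.73 ± 0.15 that was 0.22 and not called in matched cells. All 29 proteasome and cytosolic chaperone genes were lower (median -2.48), also in matched cells. HSP90AB1, the constitutive HSP90 chaperone, was at 722 and 748 CPM against 8183 and 9428 CPM, and HSPA8 at 316 and 338 against 2352 and 2527 CPM. Of 78 mitochondrial ribosomal proteins, whose messages are not of the TOP class, 64 were lower and 2 higher (median -1.98). MRPL11 was at 16.4 and 23.7 CPM against 296 and 321 CPM and MRPL23 had a log2 fold change of -2.75 ± 0.10, whereas MRPS35 was at 110 and 86.4 against 58.3 and 74.1 CPM. In all cells these medians kept their direction under each scaling tried, and the matched fit was not rescaled.

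**Figure D3:**
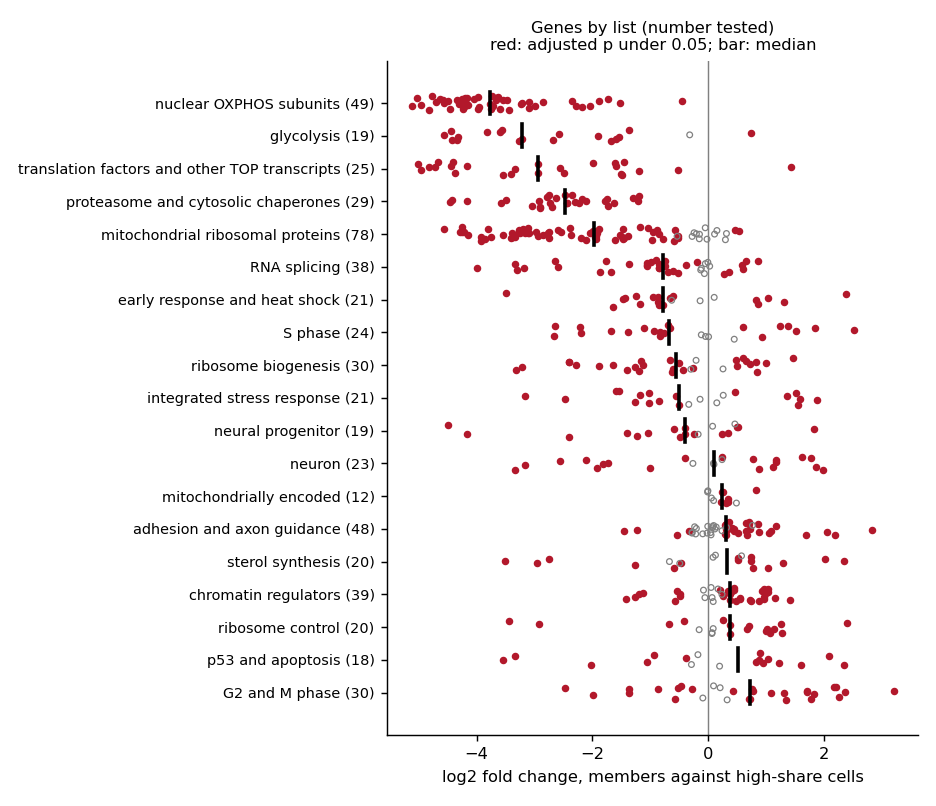
Log2 fold change of members against high-share cells (horizontal axis, TMM scaling; negative values are lower in members) for the tested genes of each list shown. Each point is 1 gene, red where the adjusted p is under 0.05 and open otherwise, and the bar is the list's median; the medians run from -3.77 (oxidative phosphorylation) to 0.71 (G2 and M phase).

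The naming rule took the 12 largest rises. NDC80, a kinetochore protein that binds spindle microtubules, was at 266 and 291 CPM in members against 31.9 and 28.7 CPM, a log2 fold change of 3.21 ± 0.13 (adjusted p = 3.0e-26, edgeR). KIF18B, a mitotic kinesin, was at 57.9 and 57.1 against 1.88 and 3.70 CPM. DBF4B, an activator of the replication kinase CDC7, was at 145 and 169 against 13.8 and 13.9 CPM. Members exceeded high-share cells in both libraries for each of these, as the naming rule required. Over all 11645 genes tested, both member sums lay above both high-share sums for 43.2%. Others were STPG4 (log2 fold change 3.94), CRTAC1 (3.77), TEX11 and MSH4, which act in meiotic recombination (3.63 and 3.29), LSMEM1 (3.45), CDC20B (3.44), the homeobox factor GBX1 (3.27) and NRIP3 (3.25).

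The 12 largest falls were larger than the rises on the log2 scale. SSR2, a subunit of the translocon-associated complex of the endoplasmic reticulum, was at 13.9 and 23.7 CPM in members against 644 and 717 CPM, a log2 fold change of -5.15 ± 0.13 (adjusted p = 1.5e-32, edgeR). ATP6V1F of the vacuolar proton pump was at 5.67 and 7.07 against 222 and 259 CPM, and UQCR11 of complex III at 5.04 and 7.58 against 222 and 231 CPM. DNPH1, a nucleotide hydrolase, had a log2 fold change of -5.18 ± 0.18. AKR7A2, an aldo-keto reductase, had only 3 UMI in all members and 198 in high-share cells, a ratio of 62.7 (exact 95% interval 21.1 to 307, counting error only). The rest were CATHL5, an antimicrobial peptide (log2 fold change -5.61), CTXN1 (-5.37), IFI27L2 (-5.37), the integrin ITGB6 (-5.36), FUOM (-5.33), CALML4 (-5.17) and the matrix proteoglycan DCN (-5.13), which is also a mesenchyme marker of the sums above. All 23 named genes that were tested in matched cells were called there in the same direction. They had been named from calls over all cells, of which matched cells are a subset, so the agreement is a description.

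Cell cycle genes were called in both directions within 1 list. The shares over all genes tested were 36.3% higher and 38.1% lower, and 28.7% and 32.7% in matched cells. Of 30 genes of G2 and M phase, 17 were higher in members and 9 lower (median 0.71), and 13 were higher and 4 lower of 27 in matched cells. SMC4, a condensin subunit, was at 346 and 362 CPM against 158 and 131 CPM. KIF23, a kinesin of cytokinesis, was at 243 and 261 against 61.4 and 49.1 CPM. UBE2C, the ubiquitin-conjugating enzyme of the anaphase-promoting complex, was lower, at 57.9 and 58.1 against 139 and 161 CPM. Of 24 S phase genes, 7 were higher and 13 lower (median -0.67, and 0.23 per total UMI without TMM). DTL, the adaptor that targets CDT1 for destruction, was at 334 and 344 CPM against 57.0 and 60.6 CPM, and POLA1, the catalytic subunit of DNA polymerase alpha, had a log2 fold change of 1.24 ± 0.11. PCNA, the sliding clamp, was at 46.6 and 49.0 CPM against 217 and 224 CPM, and MCM7, of the replicative helicase, had one of -1.68 ± 0.12. The list counts thus give no single direction for the cell cycle.

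The neural identity lists were also divided. Of 19 progenitor genes, 11 were lower and 5 higher (median -0.41, which becomes 0.05 per non-ribosomal UMI without TMM and 0.50 per total UMI). VIM, the intermediate filament of progenitors, was at 315 and 348 CPM in members against 5644 and 6189 CPM, and NES, nestin, at 472 and 534 against 1251 and 1419 CPM. PAX6, a transcription factor of the dorsal and intermediate neural tube, was at 184 and 159 against 131 and 109 CPM, and its matched log2 fold change of 0.16 was not called. Of 23 neuron genes, 10 were higher and 9 lower (median 0.10), near the 36.3% and 38.1% over all genes tested. ELAVL2, a neuronal RNA-binding protein, was at 120 and 107 CPM against 31.9 and 25.9 CPM. STMN2, a microtubule regulator of growth cones, was at 105 and 86.9 against 620 and 508 CPM, and GAP43, a growth cone protein, at 44.1 and 44.5 against 383 and 407 CPM.

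Regional genes were lower more often than higher in the few that could be tested. Of 9 ventral neural tube genes, 7 were lower and 1 higher (median -1.59). SHH, the ligand of the notochord and floor plate, was at 11.3 and 17.7 CPM in members against 190 and 169 CPM. FOXA2, a floor plate transcription factor, was at 129 and 119 against 477 and 521 CPM. Of 7 dorsal genes, 4 were lower and 2 higher, one of them PAX3, a dorsal transcription factor, at 247 and 205 against 92.1 and 83.8 CPM. HOXB2, a hindbrain HOX gene, was at 13.2 and 18.2 against 73.9 and 81.0 CPM, and of 5 HOX genes tested 3 were lower and 2 were not called. The dorsal and HOX medians, -0.56 and -0.84, turn to 0.34 and 0.07 per total UMI without TMM. Among signalling genes, 5 of 18 Notch genes were higher and 7 lower, and 8 of 19 WNT genes were higher and 8 lower. These counts lie near the shares over all genes tested, 36.3% higher and 38.1% lower.

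Adhesion and chromatin genes were called higher more often than lower. Of 48 adhesion and axon guidance genes, 26 were higher and 4 lower (median 0.31), and 25 were higher and 1 lower of 44 in matched cells. CTNND2, a neuronal catenin, was at 1431 and 1136 CPM in members against 809 and 745 CPM, and CTNNA2, another neuronal catenin, at 875 and 666 against 481 and 453 CPM. OPCML and DSCAM, adhesion molecules of the immunoglobulin family, were lower in members, at log2 fold changes of -1.45 ± 0.11 and -1.23 ± 0.11; the matched value of DSCAM, -0.42, was not called. Of 39 chromatin regulators, 24 were higher and 8 lower (median 0.37), and 19 and 6 in matched cells. ASH1L, a histone methyltransferase, was at 493 and 516 against 272 and 261 CPM, and CHD7, a chromatin remodeller, at 537 and 538 against 369 and 399 CPM. CHD4, the remodeller of the NuRD complex, was lower, at 172 and 168 against 420 and 396 CPM. Both medians stayed above 0 under each scaling tried. Among the 10% of all tested genes with the highest level in the middle 50% of cells, 54.4% were higher and 33.0% lower in members, with a median of 0.29. The share of higher adhesion genes, 26 of 48, lay close to that of these abundant genes, and that of chromatin genes, 24 of 39, somewhat above it. Lower genes made up a smaller share of both lists, 4 of 48 and 8 of 39. Over all genes tested in matched cells, 28.7% were higher and 32.7% lower.

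Splicing and stress genes were called in both directions, beside 36.3% higher and 38.1% lower over all genes tested. Of 38 splicing genes, 26 were lower and 6 higher (median -0.78, and 0.12 per total UMI without TMM). HNRNPK, an abundant RNA-binding protein, was at 188 and 175 CPM against 1144 and 1134 CPM, and the helicase DDX5 had a log2 fold change of -1.36 ± 0.09. TRA2A, an SR-like splicing factor, was at 498 and 452 against 324 and 300 CPM, and NKTR, a cyclophilin with an arginine-serine domain, had a log2 fold change of 0.66 ± 0.09. Of 21 early response and heat shock genes, 13 were lower and 5 higher (median -0.79, and 0.12 per total UMI without TMM). JUN was at 557 and 647 against 1348 and 1388 CPM and the small heat shock protein HSPB1 at 118 and 136 against 1418 and 1463 CPM, whereas ATF3, a stress transcription factor, was at 277 and 305 against 139 and 101 CPM, a difference not called in matched cells. Of 21 integrated stress response genes, 11 were lower, with ATF4 at 270 and 295 against 810 and 831 CPM, and 6 higher. The median of this list was -0.50, and 0.40 per total UMI without TMM. SESN2, an inhibitor of mTORC1, was at 174 and 177 against 55.8 and 41.7 CPM, and SLC7A11, the cystine transporter, had a log2 fold change of 1.56 ± 0.13.

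Of 18 p53 and apoptosis genes, 9 were higher and 6 lower (median 0.51). In matched cells 3 were higher and 5 lower of 15, beside 28.7% and 32.7% over all genes tested there. The matched median of -0.22 had the other sign, but the matched counts give no clear direction. BCL2L11, a pro-apoptotic BH3 protein, was at 103 and 94.0 CPM in members against 23.2 and 22.7 CPM, and CCNG1, a p53 target, at 43.5 and 45.0 against 170 and 188 CPM. Of 20 sterol synthesis genes, 9 were higher and 6 lower (median 0.32), beside 36.3% and 38.1% over all genes tested. FDPS, farnesyl diphosphate synthase, was at 6.30 and 7.07 against 66.4 and 85.6 CPM. Markers of other cell types were called in both directions. KRT8, a simple epithelial keratin, was lower, at 16.4 and 15.2 against 239 and 264 CPM. So were COL3A1, a fibrillar collagen, at 33.4 and 36.4 against 303 and 271 CPM, and APOA1, an apolipoprotein, at 39.7 and 36.4 against 526 and 555 CPM. ACTN2 and CD68, given above, were higher. The part of these markers in the other differences was not tested.

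Across the 4 equal parts of the ranking the levels changed in steps. The 49 nuclear oxidative phosphorylation genes summed to 2223 CPM in the members of replicate 1, then 3403, 9616 and 24176 CPM towards the highest share, and to 2357, 4768, 15795 and 26103 CPM in replicate 2. EEF1A1 went from 543 to 1059, 3287 and 13463 CPM and from 580 to 1443, 6543 and 14406 CPM. NDC80 took the opposite course, from 279 to 222, 149 and 32.6 CPM in replicate 1 and from 307 to 237, 72.4 and 29.6 CPM in replicate 2. The order was the same in both libraries for these, and the cells ranked from 25% to 50% were nearest to the members. Chromatin regulators summed to 9894 and 9905 CPM in members and 8067 and 8351 CPM in high-share cells, a far smaller span. Mitochondrially encoded genes had no such order, with their highest sums, 7439 and 7063 CPM, in the cells ranked from 25% to 50%.

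**Figure D4:**
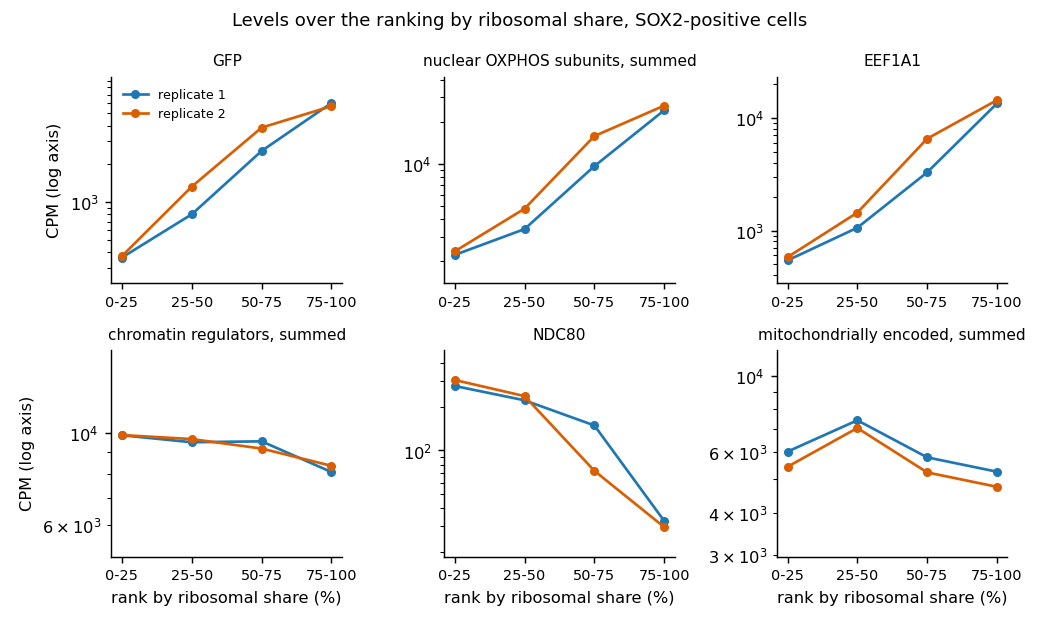
Levels in CPM (vertical log axes, with a different range in each panel) over the 4 equal parts of the ranking by ribosomal share, for 2 libraries (lines) and 6 genes or summed lists. GFP, oxidative phosphorylation and EEF1A1 are lowest in the members, NDC80 is highest there at 279 and 307 CPM, and the mitochondrially encoded sum is highest in the next part.

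The 69 called genes named as examples of their lists were followed in 3 bands of total UMI in which both groups had cells in both libraries. Their direction was that over all cells for 64 genes in the band from 2000 UMI, 68 in that from 4000 UMI and 69 in that from 8000 UMI. They were chosen as called over all cells, and each band is a subset of those cells, so these counts are a description. In the lowest of these bands DSCAM, OPCML, SHH, ND1 and ND2 turned, and in the next ND2. SHH, lower in members over all cells, was there at 38.2 and 40.2 CPM in members against 62.8 and 0 CPM in the few high-share cells. From 2000 to under 4000 UMI, with 60 and 108 members against 12 and 6 cells, EEF1A1 was 6.22-fold higher in high-share cells, GFP 6.68-fold and the summed oxidative phosphorylation genes 5.05-fold. From 4000 to under 8000 UMI, with 152 and 186 members against 43 and 33 cells, these ratios were 15.4, 10.9 and 8.58. From 8000 to under 16000 UMI, with 33 and 27 members against 186 and 298 cells, they were 31.5, 19.0 and 13.7. The ratios of these 3 were largest where cells held most UMI, but the ribosomal share of the groups also differed between bands. From the band at 2000 UMI to that at 8000 UMI, the members' median share went from 2.00% and 2.21% to 1.59% and 1.49%. That of high-share cells went from 20.6% and 27.8% to 27.3% and 27.8%. The part of this in the ratios was not tested. DTL was lower in high-share cells in all these bands, at 0.177, 0.215 and 0.202 of its level in members. These ratios come from 2 libraries summed and carry no test.

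The same ranking was applied to 958 cells with 0 UMI of SOX2 and at least 1 UMI of ELAVL3, ELAVL4 or DCX, genes of newborn neurons. In their lowest 25% the median ribosomal share was 1.24% in each library, against 13.3% and 18.1% in their highest 25%, so the contrast was narrower than in SOX2-positive cells. The high-share cells of this set also carried transcripts of other cell types. Per 1000000 non-ribosomal UMI, without TMM, their 6 erythroid markers summed to 47046 and 43008 against 637 and 591 in the low-share cells, their 8 mesenchyme markers to 1993 and 3086 against 76.4 and 97.6, and their 8 endoderm markers to 1845 and 1680 against 32.5 and 52.1. The part of these transcripts in the differences between the cell sets was not tested. GFP differed between those groups by a log2 fold change of -3.70, and this was not called different from the value in SOX2-positive cells (difference -0.42, adjusted p = 0.15, edgeR interaction test). Of 11509 genes, 1201 (10.4%) had a called difference between the cell sets, 467 (4.06%) with a higher and 734 (6.38%) with a lower log2 fold change in SOX2-positive cells. Among the lists, 2 of 49 oxidative phosphorylation genes were called different, against 13 of 30 G2 and M phase genes and 29 of 48 adhesion genes. The adhesion median was 0.31 in SOX2-positive and 0.95 in the SOX2-zero set, and that of G2 and M phase 0.71 and -0.57. NDC80, higher by 3.21 in members, was higher by 0.95 in the SOX2-zero set, a difference of 2.15 (adjusted p = 2.0e-07). FAU, EEF1A1 and ATP5MC2 had log2 fold changes of -4.57, -4.27 and -4.64 in the SOX2-zero set, none called different.

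**Figure D5:**
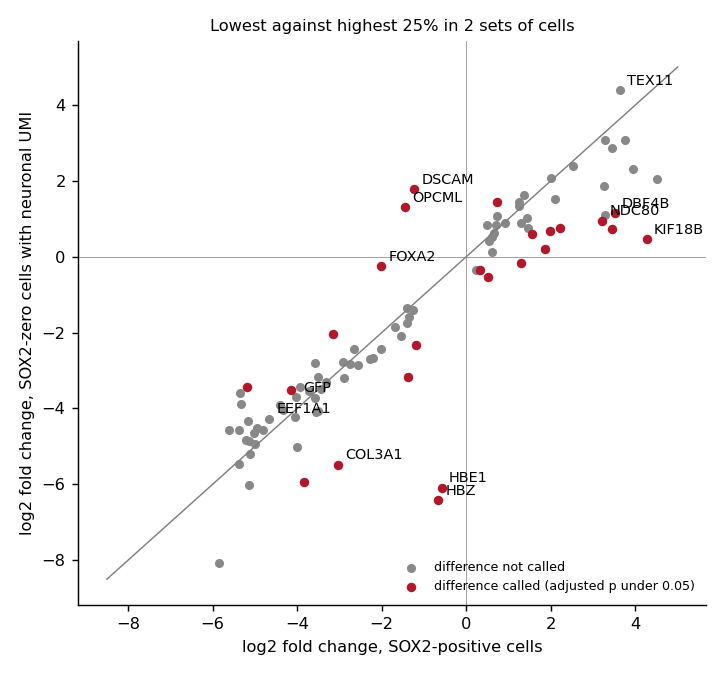
Log2 fold change of the lowest against the highest 25% by ribosomal share in SOX2-positive cells (horizontal) and in SOX2-zero cells with neuronal UMI (vertical), for the genes of the naming rule and the examples of lists. The grey diagonal marks equal values; red points are genes whose difference was called, such as NDC80, and GFP and EEF1A1 lie close to the diagonal.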

How the data were processed

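The authors deposited 1 table of raw UMI counts of 17846 genes for both libraries (11182089 and 15427708 UMI). Cell Ranger, R 4.1.2, Seurat 4.3.0 and bosTau9 are named per the submitters' processing notes, and the deposited counts held at most 4.98% mitochondrial UMI per barcode. Columns were assigned by the library number in their name, and 0 belonged to other samples. Doublets were not called or removed. Members and gene lists were chosen with earlier results of these data known.

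Counts of cells were summed by library and group. Ribosomal rows were removed, and the sums were fitted with edgeR 4.0.16 (R 4.3.3, filterByExpr, TMM, robust glmQLFit) with library as a term, leaving 1 residual degree of freedom and a median of 43.9 prior degrees of freedom. Library is a block because both groups were taken from the same library. The matched comparison drew equal numbers of cells per band of total UMI (seed 1). The prior degrees of freedom of its fit were infinite. The interaction fit used library by cell set as a block. Errors are SE of the fitted log2 fold change. In simulated sums the main fit recovered 74% of 2-fold and 96% of 4-fold changes among 11645 genes with 10 false calls. The matched fit recovered 44% and 86% among 8537 genes with 5. Each simulation changed only 200 of the better counted genes, equally up and down, with the fit's own dispersions. In the data 74.4% of genes were called in the main fit, so these rates do not carry over to the data.

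Named genes were SOX2, GFP and the 12 largest rises and falls among called genes that had a symbol, moved the same way in each library and reached 50 CPM on the higher side. Examples of lists were drawn from the called genes with the highest mean level, up to 4 per direction. Alternatives covered the test (DESeq2 1.42.0, limma 3.58.1), filters, the share limits, thinning, cell subsets and scaling. No sequences or coordinates were used. Some genes that the naming rule took are not reported here.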

Additional observations from a re-analysis of the deposited data

Results flagged for a closer look

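For 24 of the genes named here, the log2 fold change of the lowest against the highest 25% differed between SOX2-positive cells and SOX2-zero cells with neuronal UMI at an adjusted p under 0.05 in edgeR's interaction test. Differences are given as the value in SOX2-positive cells minus the value in the SOX2-zero set, whose high-share cells also held erythroid, mesenchyme and endoderm markers at the levels given above.

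Several mitotic genes named here and DBF4B, the activator of a replication kinase, had higher values in SOX2-positive cells. In the S phase list, 0 genes had a called difference. The differences were 3.68 for KIF18B, 2.25 for DBF4B, 2.15 for NDC80, 1.35 for KIF23 and 1.70 for UBE2C. CDC20B, which is not counted with them, was also higher in SOX2-positive cells, by 2.59. Stress genes were also higher there, by 1.56 for SESN2, 0.85 for SLC7A11, 1.36 for ATF3 and 1.04 for JUN. Among neural genes, the difference was 0.96 for PAX6, 1.20 for ELAVL2, -0.75 for VIM, -1.21 for GAP43 and -1.86 for FOXA2. Adhesion genes had lower values in SOX2-positive cells, with differences of -0.83 for CTNND2, -2.86 for OPCML and -3.10 for DSCAM. OPCML and DSCAM were lower in the SOX2-positive members and higher in the SOX2-zero cells of low share, at log2 fold changes of 1.31 and 1.77 there.

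The embryonic globins HBZ and HBE1 had the largest differences of the 24, 5.65 and 5.40. Both were far lower in the SOX2-zero cells of low share, at -6.42 and -6.09, and less so in members, at -0.67 and -0.58, values that turn to 0.23 and 0.33 per total UMI without TMM. Other genes of non-neural cells followed, with 2.01 for APOA1 and 2.36 for COL3A1. The remaining values were -1.83 for DNPH1 and 0.58 for ND1.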

How the results depend on the processing

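The counts of 4232 higher and 4434 lower genes stayed within 1.5 times under most alternatives. Exceptions were 2654 higher genes with DESeq2, 1568 and 2520 against the middle 50% of cells, 2289 and 2694 in cells with no neuronal UMI, 1709 and 2076 in cells thinned to 1000 UMI, and 6986 and 2623 per total UMI without TMM, a scaling added after the data were seen with 2 others. In matched cells DESeq2 called 715 higher and 1746 lower genes. Thinning and the subset leave fewer UMI or cells; for the others the cause was not tested. Without the replicate block the counts were 4231 and 4426, and 2405 and 2768 in matched cells.

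In 1 library alone, without a test, 4225 to 4230 of the rises and 4431 to 4434 of the falls had the same direction, and 2441 to 2447 and 2783 to 2788 of the matched ones. The members' median share ranged from 1.94% to 2.04% without either library, and that of high-share cells from 26.4% to 27.9%. The count of 1201 differing genes was 885 with at least 2 neuronal UMI. Against the middle 50% ND2 reversed to -0.063 and CTNNA2 to -0.21. Per total UMI without TMM HBZ reversed to 0.23 and HBE1 to 0.33. In matched cells HK2 ranged from -0.31 without replicate 1 to 0.64 without replicate 2, PAX6 from -0.15 to 0.43, and DSCAM from -0.95 to 0.056. Depth limits the matched comparison, which rests on 92 and 66 cells a side.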
